A study of Mus musculus with 24 samples.

Results

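Most of the 37 genes described here act in making fatty acids and building them into triglyceride. Others regulate these steps or handle lipid in other ways, such as the lipase Pnpla2 and the lysophosphatidylcholine transporter Mfsd2a. The 37 were chosen by name, and all were found among the 15741 genes in the liver tables of this series, each in all 10 tables. The livers came from mice of 2 genotypes, wild type (WT) and whole body GCN2 KO, in 8 groups of 3. GCN2 is a protein kinase that senses uncharged transfer RNA and so responds to a shortage of amino acids. Every mouse was housed alone, took a control diet for 2 days of adjustment under 12 hours of light and 12 of dark, and later spent 8 days in constant darkness. The WT Control and KO Control groups stayed on that diet, and the WT LeuD and KO LeuD groups were moved to a diet without leucine 24 hours before the lights went off. Each of these 4 conditions gave livers labelled circadian time (CT) 03 and CT15. CT03 falls in the resting phase of a nocturnal animal and CT15 in its active phase. Because GCN2 was missing from the whole body, the comparisons do not separate its absence in liver from its absence elsewhere. The labels number the animals within a group but do not give their age, sex or litter, so the p-values below measure only the spread between these mice.

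De novo lipogenesis turns surplus carbohydrate into fat. Citrate leaves the mitochondrion and is split to acetyl-CoA, acetyl-CoA carboxylase makes malonyl-CoA, and fatty acid synthase joins these units to palmitate at the expense of NADPH. Elongases and desaturases then reshape the chain, and acyltransferases, lipins and diacylglycerol acyltransferases attach acyl chains to glycerol. In liver the pathway follows feeding and insulin, largely through the transcription factors SREBP-1c, ChREBP with its partner MLX, and the liver X receptor.

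The libraries held 34137121 to 44884200 reads. All 8 hepatocyte markers looked for had reads in every library. Reads over the whole of Eif2ak4, the gene of GCN2, gave 287 to 349 normalized counts in the 12 WT libraries and 243 to 462 in the 12 libraries labelled KO. The groups overlap, and the labels do not say which exons the knockout removes, so this count does not check the genotype. Pancreas acinar transcripts, of which 17 of 19 listed were measured, exceeded 1000 RPM, reads scaled to a common total, in 3 libraries: WT LeuD CT15 replicate 1, KO LeuD CT03 replicate 1 and KO LeuD CT15 replicate 3. In the other 21 libraries they summed to 9.78 to 682 RPM. Their part in the results was not tested beyond leaving those libraries out. In bulk liver, fewer cells of a type and less RNA per cell cannot be told apart.

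A pair of KO Control mice stood apart in this pathway. The median distance of the 37 genes from their group mean was 0.71 log2 in KO Control CT03 replicate 3 and 1.15 in KO Control CT15 replicate 1, against 0.11 to 0.60 in the other 22 livers. KO Control CT03 replicate 3 was the lowest of its group of 3 for 26 of the 37 genes (36.8% of all genes), and KO Control CT15 replicate 1 for 31 (39.7% of all genes). The count alone does not set them apart, since KO LeuD CT15 replicate 2 was also the lowest for 26, WT Control CT03 replicate 1 for 24 and WT LeuD CT15 replicate 3 for 23. Scd1 gave 15230 and 5417 normalized counts in these animals against 352422 to 789218 in the other 4 KO Control livers, and Fasn gave 2430 and 2761 against 16432 to 125688. Acinar markers were at 273 and 682 RPM there, against 37.9 to 50.3 in the other 4 KO Control livers. The median coefficient of variation of the 37 genes was 43.4% in KO Control CT03 and 64.3% in KO Control CT15, against 19.0% to 33.2% in the other 6 groups. Over all genes it was 11.2% to 18.6% in the 8 groups. Counts of called members that use these groups are therefore also given without the pair. Values without the pair are given for some, not all, of the single genes whose call it changed. The pair was chosen after the values of these genes were seen, so fits without it are not independent tests. The fit holds 1 estimate of spread per gene over all 8 groups, so the pair also enters the standard errors of other contrasts. Those are not given without the pair, though counts from fits of the compared groups alone are given for time and diet in WT.

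**Figure D1:**
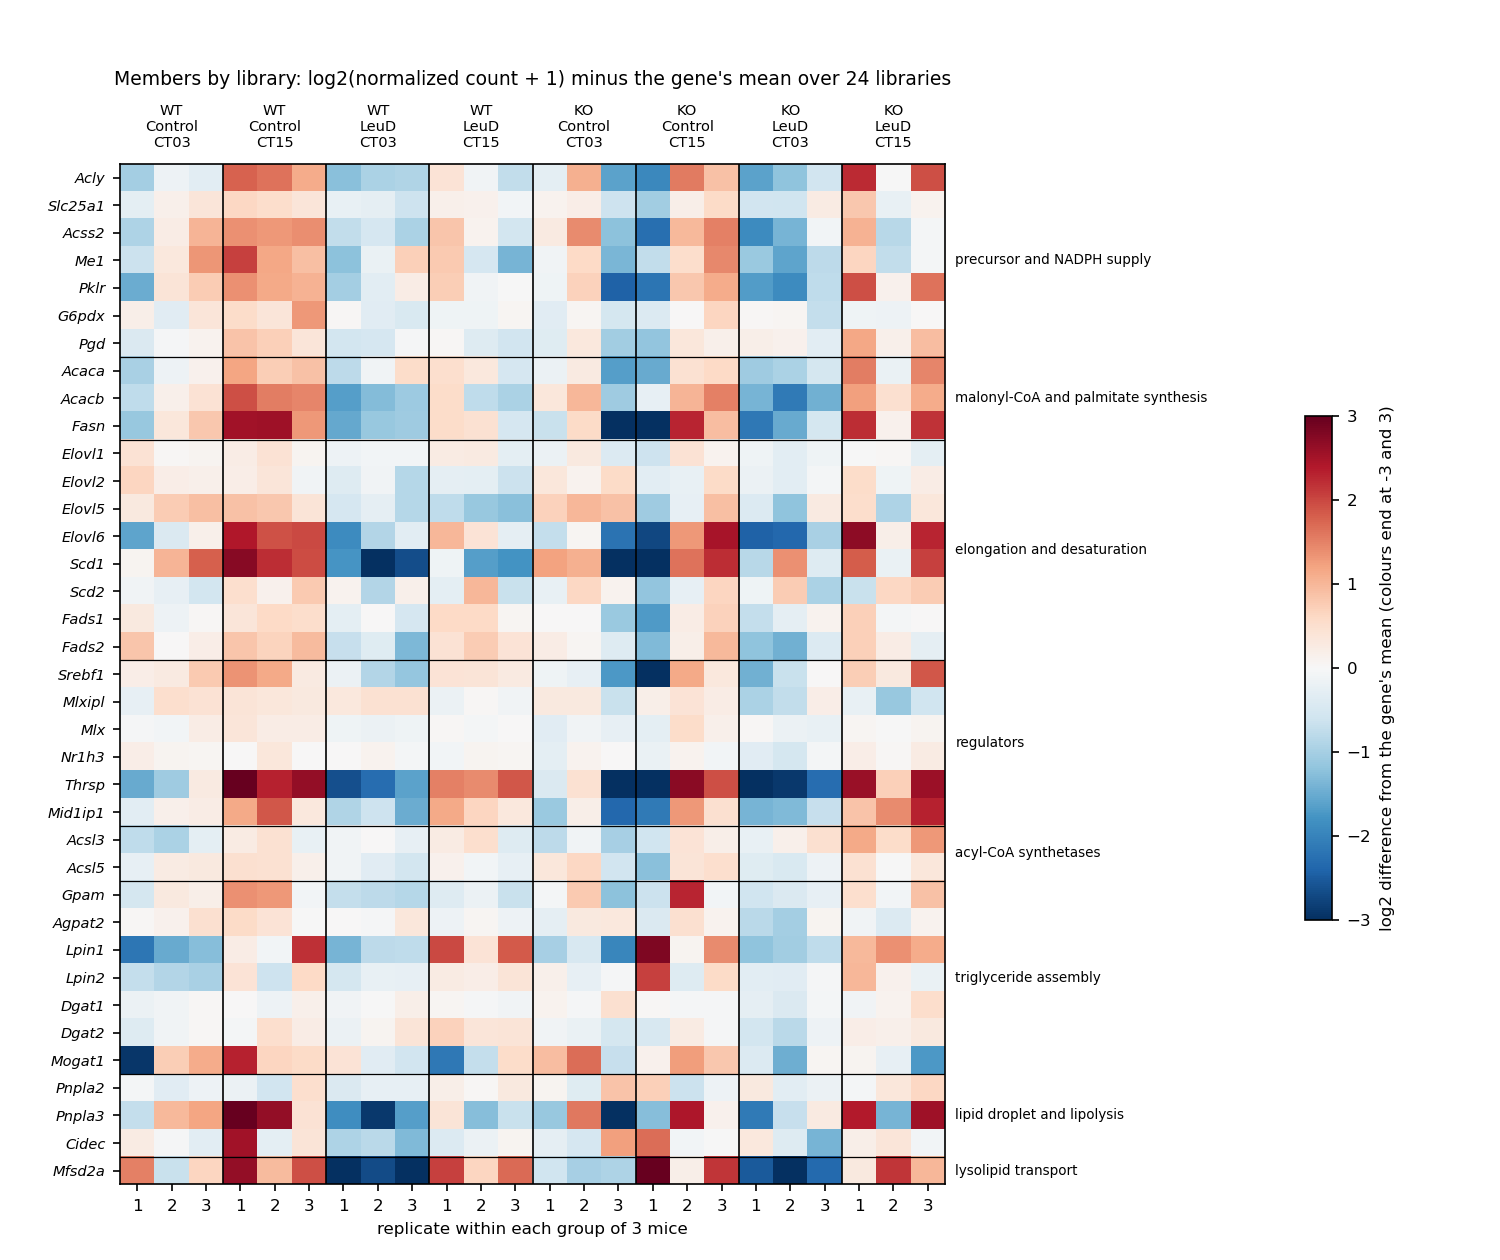
Level of each of the 37 genes (vertical axis, grouped by role) in each of the 24 livers (horizontal axis, replicate within group) as log2(normalized count + 1) minus the gene's mean over the livers, with colours ending at -3 and 3. Most genes are red in WT Control CT15 and blue in WT LeuD CT03. KO Control CT03 replicate 3 and KO Control CT15 replicate 1 are the lowest of their groups for most genes. KO Control CT03 replicate 1 is also blue for some genes, such as Fasn and Elovl6. KO Control CT15 replicate 1 is red for Lpin1, Lpin2, Cidec and Mfsd2a.

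Together the 37 genes took 1.22%, 1.78% and 2.50% of all reads in the WT Control livers at CT03 and 4.99%, 3.76% and 2.97% at CT15. On LeuD the WT shares were 0.637%, 0.641% and 0.665% at CT03 and 1.37%, 0.995% and 0.921% at CT15. The LeuD range lay below the Control range at each time in WT. In KO Control livers the shares were 1.73%, 1.88% and 0.509% at CT03 and 0.473%, 2.69% and 3.09% at CT15. In KO LeuD livers they were 0.641%, 1.63% and 0.916% at CT03 and 2.81%, 1.11% and 2.77% at CT15. Scd1, the main stearoyl-CoA desaturase of liver, held from 0.0135% of reads in KO Control CT15 replicate 1 to 2.97% in a WT Control CT15 liver.

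The times of day were compared first, in each condition and as a mean of the 4 conditions, which no deposited table gives. The clock output gene Dbp, chosen after its values were seen, overlapped between the labelled times on Control. WT Control gave 110 to 676 normalized counts at CT03 and 356 to 937 at CT15, and KO Control 56.5 to 3591 and 74.1 to 681. On LeuD Dbp did not overlap, at 37.8 to 50.2 and 969 to 2061 in WT and 47.7 to 128 and 368 to 915 in KO. Whether all livers of a group were at 1 phase was not tested. Averaged over the 4 conditions, 16 of the 37 genes were higher at CT15 than at CT03 and 0 were lower (limma with Benjamini-Hochberg adjustment over 14420 genes, called at an adjusted p below 0.05). Of all genes, 11.9% were called higher and 13.1% lower. The fitted difference was above 0 for 34 of the 37, with a median of 0.68 on the scale of log2(normalized count + 1), against 51.4% of all genes. The genes that rose covered most steps of the pathway: Acly and Pklr in precursor supply, Acaca, Acacb and Fasn in palmitate synthesis, Elovl6 and Fads2 in chain remodelling, Thrsp, Mid1ip1 and Mlx among the regulators, Acsl3 in activation, Lpin1, Lpin2 and Dgat2 in assembly, Pnpla3 on the lipid droplet, and Mfsd2a. Without the pair of KO Control mice 24 of the 37 were called higher and 0 lower, with 13.4% of all genes called higher. All 16 calls were kept, at differences from 0.28 for Mlx to 3.57 for Thrsp, and Slc25a1, Acss2, Pgd, Scd1, Fads1, Srebf1, Acsl5 and Gpam were added. The pair was chosen after the values of the 37 genes were seen, so the added calls are not independent of that choice. Without the 3 libraries rich in acinar transcripts 11 were called higher, with 9.21% of all genes, and Pklr, Acaca, Fasn, Mlx and Pnpla3 no longer passed.

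**Figure D2:**
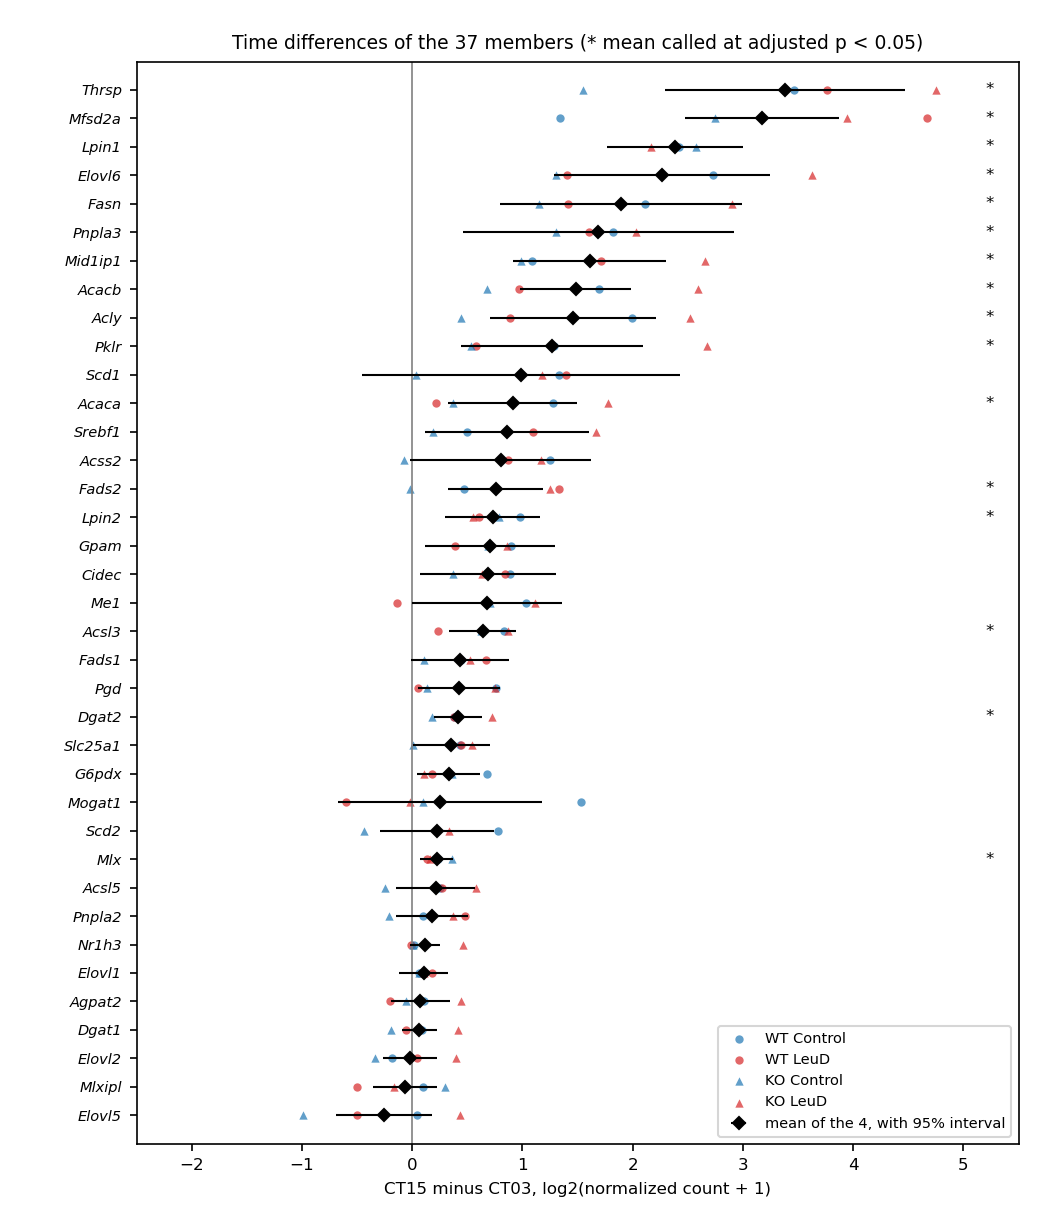
Difference between CT15 and CT03 in log2(normalized count + 1) (horizontal axis) for each of the 37 genes (vertical axis); circles and triangles are the 4 conditions, black diamonds their mean with its 95% interval, and stars mark the 16 genes called on the mean. Thrsp, Mfsd2a and Lpin1 have the largest mean differences of the 37, and Elovl5 the lowest.

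Among the 7 genes that supply acetyl-CoA and NADPH, 2 rose at CT15 on the averaged contrast. Acly, the ATP citrate lyase, stood at 8038, 14655 and 13029 normalized counts in WT Control at CT03 against 55442, 50488 and 34790.3 at CT15. On LeuD the WT values were 6819, 8412 and 8646 at CT03 against 21446, 15129.8 and 9699 at CT15. In KO Control they were 13264, 34113 and 5332 at CT03 against 4259.5, 47949 and 29636 at CT15. The times separated fully in both WT conditions and overlapped in KO Control, where the pair of low mice sat at the bottom of each group. KO LeuD gave 5318, 7046 and 10828 at CT03 against 76789.7, 16169 and 61544 at CT15, again without overlap. The averaged difference was 1.46 ± 0.36 log2 (SE, adjusted p = 0.00537), and the difference in KO LeuD alone was 2.52 ± 0.72 (adjusted p = 0.0354).

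Pklr, the pyruvate kinase of liver, had an averaged difference of 1.27 ± 0.40 (adjusted p = 0.0238). Its KO LeuD values were 4844, 4154 and 9166 at CT03 against 59220.0, 16801 and 48022 at CT15, a difference of 2.67 ± 0.79 (adjusted p = 0.0423). In WT Control it gave 5525, 20346 and 26334 at CT03 against 39704, 33852 and 31819 at CT15, without overlap but short of the threshold (adjusted p = 0.525). WT LeuD gave 7675, 12338 and 18029 at CT03 against 25745, 14409 and 15349 at CT15, and KO Control 14117, 24978 and 2875 at CT03 against 3404, 26841 and 33527 at CT15, so in these conditions the times overlapped. The other 5 suppliers, the citrate carrier Slc25a1, the acetyl-CoA synthetase Acss2, the malic enzyme Me1 and the pentose phosphate dehydrogenases G6pdx and Pgd, did not pass, with averaged differences of 0.33 to 0.81. Without the pair of KO Control mice Slc25a1, Acss2 and Pgd passed, Pgd at 0.46 ± 0.13 (adjusted p = 0.0149).

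All 3 genes of malonyl-CoA and palmitate synthesis rose on the averaged contrast. Acacb, the acetyl-CoA carboxylase at the mitochondrial surface, gave 1984, 3738 and 4554 at CT03 against 12775, 9769 and 9268 at CT15 in WT Control, and 1071, 1355 and 1572 at CT03 against 4915, 1996 and 1752 at CT15 in WT LeuD. In KO Control it gave 4224, 6664 and 1611 at CT03 against 2841, 6768 and 9601 at CT15, and in KO LeuD 1275, 776 and 1245 at CT03 against 7906, 4666 and 7302 at CT15. Only in KO Control did the times overlap. On the averaged contrast it differed by 1.48 ± 0.24 (adjusted p = 0.000157), and in KO LeuD it was 2.59 ± 0.48 (adjusted p = 0.00247), a call that held when each of the 6 libraries was left out. Acaca, the cytosolic carboxylase, had an averaged difference of 0.91 ± 0.28 (adjusted p = 0.0212).

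Fasn, the fatty acid synthase, was singled out after its values were seen. It gave 11836, 33027 and 45104 normalized counts at CT03 against 148053, 150865 and 64384 at CT15 in WT Control, and 8994, 11870.2 and 12473 at CT03 against 38008, 35836 and 18427 at CT15 in WT LeuD. KO LeuD livers held 5879, 9116 and 18053 at CT03 against 120982, 28360.1 and 116790.1 at CT15. In these 3 conditions every CT15 liver was above every CT03 liver. KO Control livers held 16432, 38805 and 2430.3 at CT03 against 2761, 125688 and 49264 at CT15 and overlapped. Averaged over the conditions it differed by 1.90 ± 0.53 (adjusted p = 0.0117). In the authors' deposited table Fasn differed by 2.01 (adjusted p = 0.013) in WT Control, 1.47 (adjusted p = 1.9e-08) in WT LeuD and 3.00 (adjusted p = 0.00072) in KO LeuD.

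Among the 8 elongases and desaturases, Elovl6 and Fads2 rose. Elovl6, which extends palmitate to stearate, gave 2580.3, 5742 and 8567 at CT03 against 40920.0, 29337 and 30719 at CT15 in WT Control and 2087, 4196 and 6269 at CT03 against 15388, 10349.8 and 6401 at CT15 in WT LeuD. KO Control gave 4719.6, 8141 and 1664 at CT03 against 1176, 19056 and 43274 at CT15, and KO LeuD 1445, 1522 and 3954 at CT03 against 49532, 8841 and 37711 at CT15. The 2 times did not overlap outside KO Control. Its averaged difference was 2.27 ± 0.47 (adjusted p = 0.00145), and in KO LeuD it was 3.63 ± 0.94 (adjusted p = 0.0212). Fads2, the delta-6 desaturase of polyunsaturated chains, differed by 0.76 ± 0.21 (adjusted p = 0.0108).

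Scd1, which places the double bond of oleate and was singled out after its values were seen, did not pass for time. It gave 179129, 341692 and 586922 at CT03 against 1116140.3, 790487 and 651297 at CT15 in WT Control, and 49224, 17198 and 26832 at CT03 against 154549, 54058 and 49151 at CT15 in WT LeuD. In KO LeuD it gave 95359, 434181 and 128456 at CT03 against 596083, 146693 and 704084 at CT15. The times did not overlap in WT Control and overlapped in both LeuD conditions. Over the 4 conditions the mean difference was 0.98 ± 0.69 (adjusted p = 0.32), and without the pair of KO Control mice it was 1.17 ± 0.34 (adjusted p = 0.0152). That pair was chosen after its low Scd1 values were seen, so the fit without it is not an independent test of Scd1. The other 5 of this role, Elovl1, Elovl2, Elovl5, Scd2 and Fads1, had averaged differences of -0.26 to 0.44 and did not pass. Elovl5, an elongase of polyunsaturated chains, had the lowest, at -0.26 ± 0.21 (adjusted p = 0.4).

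Of the 6 regulators 3 rose on the averaged contrast. Thrsp (Spot 14), a small protein that promotes lipogenesis, gave 4106, 5579 and 14239.6 at CT03 against 104341, 58175 and 72483 at CT15 in WT Control. WT LeuD gave 1899, 2420.0 and 3869 at CT03 against 33459, 31254 and 42896 at CT15, and KO LeuD 1262, 1586 and 2423 at CT03 against 71213, 19211 and 69218 at CT15. Each of these CT15 groups lay wholly above its CT03 group. KO Control gave 8681, 16047 and 1357 at CT03 against 1377, 76878 and 44623 at CT15, with the pair of low mice at the bottom of each group. Its averaged difference reached 3.38 ± 0.52 (adjusted p = 9.14e-05), with 3.77 ± 1.04 in WT LeuD (adjusted p = 0.0407) and 4.75 ± 1.04 in KO LeuD (adjusted p = 0.00782). The WT LeuD call was lost when any of its 6 libraries was left out.

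Mid1ip1, a relative of Thrsp that activates acetyl-CoA carboxylase, gave 2761, 3861 and 4065 at CT03 against 7658, 12587 and 4294 at CT15 in WT Control and 1848, 2252 and 1226 at CT03 against 7625, 5402 and 4338 at CT15 in WT LeuD. In KO Control it gave 1606, 3892 and 675 at CT03 against 799.6, 8484 and 4861 at CT15, and in KO LeuD 1322, 1392 and 2136 at CT03 against 6276, 9185 and 17101 at CT15. Only the KO Control times overlapped. Averaged over the conditions it differed by 1.61 ± 0.33 (adjusted p = 0.00138), and 2.66 ± 0.66 in KO LeuD (adjusted p = 0.0174).

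The transcription factor genes had smaller averaged differences. Srebf1, which encodes SREBP-1, gave 12268, 12894 and 18569 at CT03 against 27272, 23622 and 12833 at CT15 in WT Control and 9410.4, 5809 and 4785 at CT03 against 14218, 14029.7 and 12879.8 at CT15 in WT LeuD. In KO Control it gave 9840.2, 9001 and 3249 at CT03 against 1339, 23685 and 13377 at CT15, and in KO LeuD 3919, 6781 and 10828 at CT03 against 17804, 13207 and 38972 at CT15. The times separated on LeuD in both genotypes and overlapped on Control. Its averaged difference of 0.86 ± 0.36 did not pass (adjusted p = 0.0831), and without the pair of KO Control mice it was 1.04 ± 0.21 (adjusted p = 0.00116).

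Mlxipl, which encodes ChREBP, gave 4420.4, 7444 and 7064 at CT03 against 6859.5, 6559 and 6387 at CT15 in WT Control and 6495, 7229 and 7129 at CT03 against 4636, 5334 and 4823 at CT15 in WT LeuD. KO Control gave 6357, 6428 and 3311 at CT03 against 5910.5, 6993 and 6088 at CT15, and KO LeuD 2718, 3141 and 5992 at CT03 against 4451, 2381 and 3458 at CT15. In WT LeuD every CT15 liver was below every CT03 liver, and elsewhere the times overlapped. Over the 4 conditions the mean difference was -0.06 ± 0.14 (adjusted p = 0.772). Nr1h3, the liver X receptor alpha, gave 4939.8, 4531 and 4482 at CT03 against 4310.5, 5497 and 4346 at CT15 in WT Control, 4354, 4644 and 4159.8 at CT03 against 4040.2, 4536 and 4508 at CT15 in WT LeuD, and 3500.3, 4599 and 4328 at CT03 against 3753, 4638 and 4093 at CT15 in KO Control. KO LeuD gave 3401, 3012 and 4152 at CT03 against 4924, 4433 and 5078 at CT15, the only condition in which its times did not overlap. That difference was small and passed, at 0.46 ± 0.13 (adjusted p = 0.0333). The call was kept in 2 of 6 fits that left out 1 library of these groups. It was lost without the 3 acinar-rich libraries and in the fit of these groups alone, and the authors' deposited table did not call Nr1h3. Mlx rose by 0.22 ± 0.07 on the averaged contrast (adjusted p = 0.0293).

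Of the acyl-CoA synthetases, which activate free fatty acids, Acsl3 rose and Acsl5 did not pass. Acsl3 gave 1064, 935 and 1477 at CT03 against 2147, 2487 and 1553 at CT15 in WT Control and 1681, 1827 and 1522 at CT03 against 2166, 2572 and 1377 at CT15 in WT LeuD. KO Control gave 1051, 1683 and 909.8 at CT03 against 1199.8, 2397 and 2034 at CT15, and KO LeuD 1555, 2023 and 2518 at CT03 against 4007, 2676 and 4484 at CT15. The times separated in WT Control and KO LeuD. The averaged difference was 0.64 ± 0.15 (adjusted p = 0.00325) for Acsl3 and 0.21 ± 0.17 (adjusted p = 0.388) for Acsl5.

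In triglyceride assembly 3 of 7 genes rose, Lpin1 with the largest difference. Lpin1, a phosphatidate phosphatase that also acts as a transcriptional coactivator, gave 786, 1240.0 and 1450.3 at CT03 against 4115, 3314 and 15975 at CT15 in WT Control. WT LeuD gave 1334, 2059 and 2080.3 at CT03 against 13906, 4671 and 12551 at CT15, KO Control 1771, 2525 and 911 at CT03 against 24499, 3712 and 9425 at CT15, and KO LeuD 1533, 1702 and 2074 at CT03 against 6959, 9094 and 7672 at CT15. It was the only 1 of the 37 genes whose CT15 livers lay wholly above its CT03 livers in all 4 conditions, which 1.04% of all genes did. It was also the only member higher in all 4 of the authors' deposited time tables. KO Control CT15 replicate 1, low for most of the pathway, held the highest Lpin1 level of the 24 livers. On the averaged contrast it differed by 2.39 ± 0.29 (adjusted p = 8.51e-06).

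Lpin2 rose by 0.73 ± 0.21 (adjusted p = 0.0126) on the averaged contrast. Dgat2, which completes triglyceride synthesis from newly made chains, gave 19440.1, 23502 and 26171 at CT03 against 24589.9, 35943 and 29851 at CT15 in WT Control, 22525, 27029 and 33361 at CT03 against 41188, 32577 and 33430.2 at CT15 in WT LeuD, and 23661, 22123 and 17708 at CT03 against 18121, 30017 and 24955 at CT15 in KO Control. In KO LeuD it gave 17275, 14575 and 22944 at CT03 against 29160.1, 28446 and 31275 at CT15, the only condition without overlap. Its averaged difference was 0.42 ± 0.10 (adjusted p = 0.00552). The acyltransferases Gpam and Agpat2, the other diacylglycerol acyltransferase Dgat1 and the monoacylglycerol acyltransferase Mogat1 did not pass, with averaged differences of 0.71, 0.07, 0.07 and 0.25. Mogat1 was near the limit of measurement, at 1.95 to 107.7 normalized counts over the 24 livers.

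Of the 3 lipid droplet genes, Pnpla3, which remodels droplet lipid, had an averaged difference of 1.69 ± 0.59 (adjusted p = 0.0408), a call kept in 9 of the 24 fits that each left out 1 library. The droplet protein Cidec differed by 0.69 ± 0.30 (adjusted p = 0.0957) and the lipase Pnpla2 by 0.18 ± 0.16 (adjusted p = 0.421), and neither passed.

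Mfsd2a, a transporter of lysophosphatidylcholine, showed the lowest adjusted p of the 37 for time. Its WT Control livers held 2407, 528 and 1312 normalized counts at CT03 against 5220.5, 1634 and 3203 at CT15, and the times overlapped. WT LeuD livers held 70.4, 130.2 and 81.5 at CT03 against 3487, 1322 and 2744 at CT15. KO Control gave 553, 424 and 442 at CT03 against 8915, 949 and 3703 at CT15, and KO LeuD 146, 71.4 and 166 at CT03 against 1032, 3701 and 1693 at CT15. In those 3 conditions every CT15 liver was above every CT03 liver. Its averaged difference reached 3.18 ± 0.34 (adjusted p = 1.45e-06). It was 4.67 ± 0.67 in WT LeuD (adjusted p = 0.000371), 25.4-fold, and 3.95 ± 0.67 in KO LeuD (adjusted p = 0.00121). Both calls held when each library was left out in turn. In WT Control it was 1.34 ± 0.67 (adjusted p = 0.407).

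**Figure D3:**
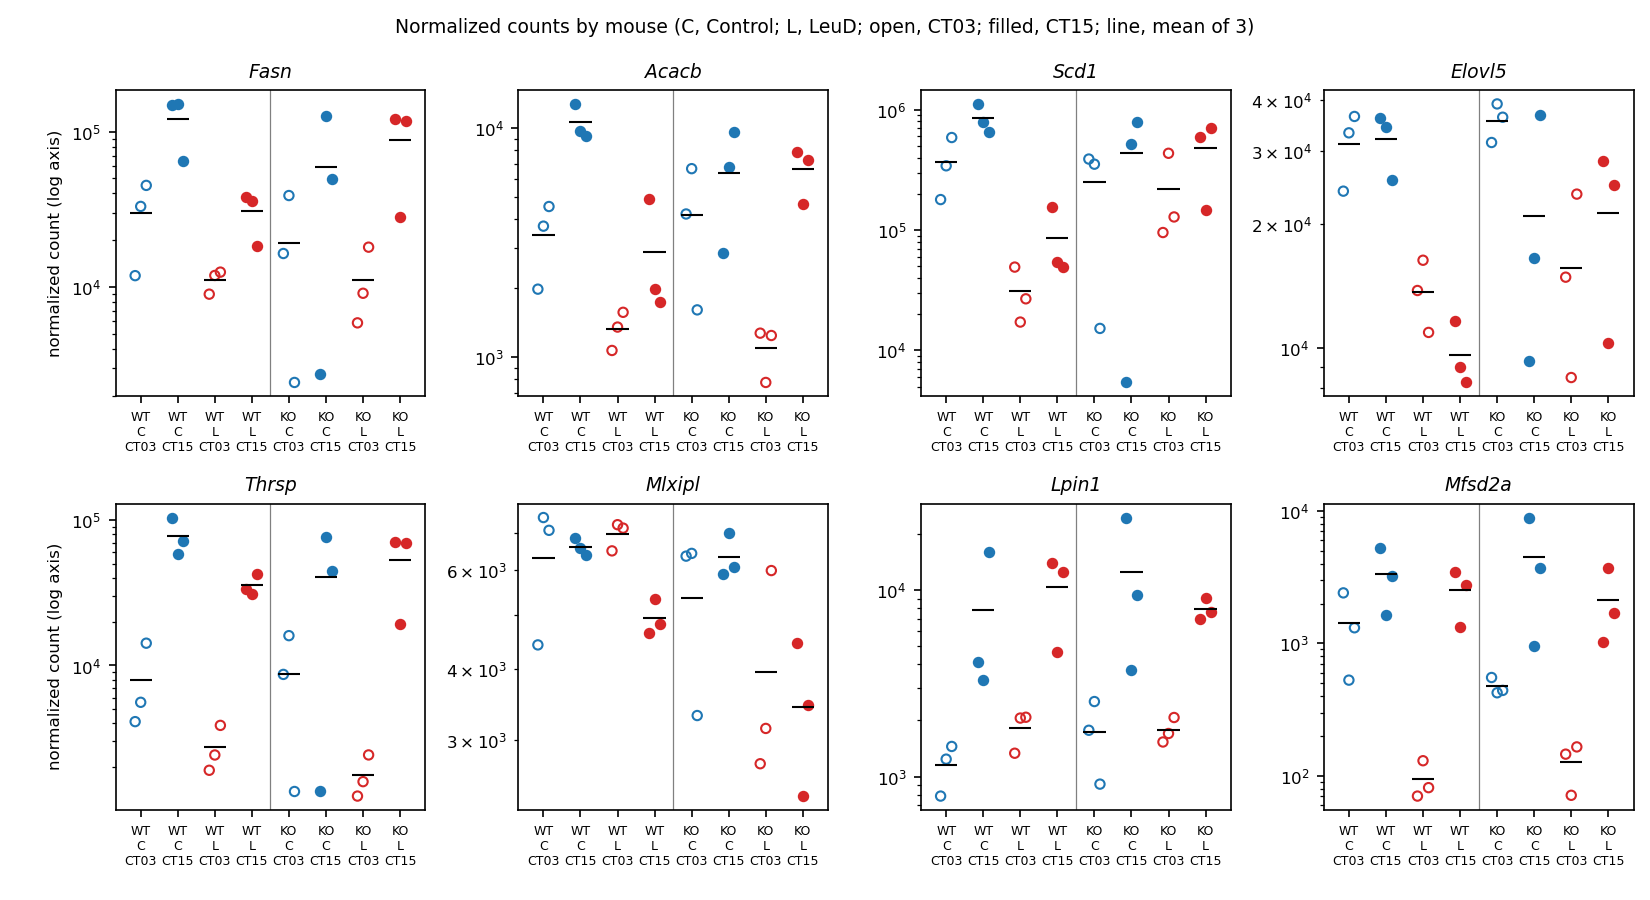
Normalized counts (vertical log axis) of Fasn, Acacb, Scd1, Elovl5, Thrsp, Mlxipl, Lpin1 and Mfsd2a in every liver by group (horizontal axis), with open circles for CT03, filled circles for CT15 and a line at the mean of 3. The WT LeuD values of Scd1 and Elovl5 lie below all WT Control values, and Mfsd2a lies at 70.4 to 165.5 in the LeuD livers at CT03.

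Taken by condition, fewer members passed than on the mean. In WT Control limma called 0 of 37 for time and 1.07% of all genes, and edgeR on the recovered reads called 1 member. At an unadjusted limma p below 0.05 there were 10 members and 1899 of the 14420 genes. The fit of these 2 groups alone called 4, and the share of all genes called in fits of 2 groups alone is not given. In WT LeuD 3 were called (Thrsp, Mfsd2a and Lpin1, at 2.38 ± 0.59, adjusted p = 0.0211) against 4.94% of all genes, and the fit of these groups alone called 11. In KO Control 2 were called, Lpin1 at 2.57 ± 0.59 (adjusted p = 0.0198) and Mfsd2a at 2.74 ± 0.67 (adjusted p = 0.0263), against 3.96% of all genes. Once the pair of low KO Control mice was left out both calls were lost, with Lpin1 at 1.48 ± 0.60 (adjusted p = 0.242) and Mfsd2a at 1.95 ± 0.74 (adjusted p = 0.209), and Mlx passed at 0.57 ± 0.14 (adjusted p = 0.0457).

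In KO LeuD the fit over 24 libraries called 10 members higher and 0 lower, against 8.11% of all genes called and 4.84% called higher. The fit of these groups alone called 6. Beyond those above they were Lpin1 at 2.16 ± 0.59 (adjusted p = 0.027) and Dgat2 at 0.72 ± 0.21 (adjusted p = 0.0353). Without the acinar-rich KO LeuD CT03 replicate 1, KO LeuD CT15 replicate 3 and WT LeuD CT15 replicate 1, 2 of the 37 were called. Of the 10 calls, 3 were kept in every fit that left out 1 library of these groups, those of Acacb, Thrsp and Mfsd2a. The calls of Acly, Pklr, Nr1h3 and Dgat2 were lost in the fit of these groups alone. Leaving out KO LeuD CT03 replicate 3 raised the number called from 10 to 15. Leaving out KO LeuD CT03 replicate 1, KO LeuD CT03 replicate 2 or KO LeuD CT15 replicate 3 lowered it to 3. The shares of all genes called in these refits are not given. The refit counts therefore do not tell a shift of the members from a shift of all genes.

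The authors' deposited tables compared the groups in pairs and called more. At an adjusted p below 0.05 they held 13 members higher and 0 lower at CT15 in WT Control (6.2% of all genes called), 15 higher and 2 lower in WT LeuD (13.7%), 2 higher in KO Control (2.43%) and 16 higher in KO LeuD (5.68%). The 2 lower members in WT LeuD in the authors' deposited table were Elovl5 at -0.51 (adjusted p = 0.0355) and Mlxipl at -0.50 (adjusted p = 0.000392). Counted without a model, CT15 and CT03 did not overlap for 18 members in WT Control (48.6% of members, 24.1% of all genes), all higher at CT15. For WT LeuD this held for 18 higher members and for Mlxipl, which was lower (51.4% against 31.5%). It held for 2 members in KO Control (5.4% against 19.9%) and 18 in KO LeuD (48.6% against 22.1%). The sign of the time difference was positive in all 4 conditions for 24 members, 64.9% of them, against 19.3% of all genes.

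Whether the time difference depended on diet or genotype was tested directly. The 4 such tests, time by diet in each genotype and time by genotype on each diet, called 0 of the 37 members with limma and 0 with edgeR. At an unadjusted p below 0.05 they held 1 member (time by diet in WT), 7 (time by diet in KO), 0 (time by genotype on Control) and 3 (time by genotype on LeuD). In the same order 492, 1650, 735 and 1319 of the 14420 genes were below that p. After adjustment the 4 tests called 0%, 0.257%, 0.0277% and 0.0624% of all genes. The members with the lowest p were Mfsd2a, Mogat1 and Mlxipl for time by diet in WT, Mfsd2a at 3.32 ± 0.95 (95% interval 1.35 to 5.30, adjusted p = 1). The intervals for Mogat1 and Mlxipl were -4.75 to 0.49 around -2.13 and -1.42 to 0.22 around -0.60. For time by diet in KO they were Dgat1 at 0.61 ± 0.21, Acacb at 1.91 ± 0.68 and Nr1h3 at 0.45 ± 0.18, and the same 3 genes led time by genotype on LeuD at 0.47 ± 0.21, 1.62 ± 0.68 and 0.47 ± 0.18. These contrasts share the KO LeuD groups. For time by genotype on Control they were Elovl5 at -1.04 ± 0.59, Scd2 at -1.22 ± 0.70 and Acly at -1.55 ± 1.02. Leaving out the pair of low KO Control mice called 0 members in either test that uses them, and moved the median of the 37 from 0.62 to 0.48 for time by diet in KO and from -0.33 to -0.29 for time by genotype on Control.

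In WT livers most of the pathway's values were lower on the leucine-free diet, although few passed the test over all groups. At CT03 the fitted difference, LeuD minus Control, was below 0 for 28 of the 37 genes with a median of -0.40, and at CT15 for 33 with a median of -0.55. The median of all genes was within 0.01 of 0 at each time. Other transcripts moved with the diet in these mice. The 5 erythroid markers, each with reads in every library, summed to 230 to 460 RPM on Control and 121 to 150 on LeuD at CT03, and to 212 to 338 and 78.1 to 175 at CT15. Mitochondrial transcripts held 4.92% to 5.55% of reads on Control and 4.23% to 4.63% on LeuD at CT03, and 4.97% to 6.01% and 4.58% to 4.84% at CT15. Neither measure overlapped between the diets at either time, and their part in the result was not tested. Dbp, chosen after its values were seen, did not overlap between the diets in WT either. At CT03 it gave 110 to 676 normalized counts on Control and 37.8 to 50.2 on LeuD. At CT15 it gave 356 to 937 on Control and 969 to 2061 on LeuD. Whether the diets differed in phase at a labelled time was not tested. The fit over 24 libraries called 1 member at CT03 (0.166% of all genes) and 0 at CT15 (0.0208% of all genes, with 0 members by edgeR). At CT15 11 members had an unadjusted limma p below 0.05, as did 1410 of the 14420 genes. The fits of the 2 compared groups alone called 4 and 2, and the shares of all genes called in those fits are not given. The authors' deposited tables held 12 members lower and 2 higher at CT03 (7.22% of all genes called) and 16 lower and 0 higher at CT15 (3.7%). Control and LeuD livers did not overlap for 14 lower and 2 higher members at CT03 (43.2% of members, 24.1% of all genes). At CT15 they did not overlap for 21 members, all lower (56.8%, against 19.2% of all genes).

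A set of 8 genes lay lower on LeuD without overlap at both times in WT: Acacb, Elovl2, Elovl5, Scd1, Mlx, Thrsp, Gpam and Pnpla3. That is 21.6% of the members, against 3.29% of all genes. The authors' deposited tables held 6 lower at both times, Acacb, Fasn, Elovl2, Elovl5, Scd1 and Pnpla3. The time and diet contrasts in WT share their groups of mice, so their values are not independent of each other.

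By size, Scd1 led the fatty acid genes. Its values, given above, ran from 179129 to 586922 on Control and from 17198 to 49224 on LeuD at CT03, and from 651297 to 1116140 and from 49151 to 154549 at CT15. The highest LeuD liver was below the lowest Control liver at each time. The fitted difference was -3.54 ± 1.38 at CT03 and -3.48 ± 1.38 at CT15, with adjusted p = 0.346 and 0.421 in the fit over all groups. The pair of KO Control mice enters these standard errors, and the WT values are not given without it. In the authors' deposited tables it was -3.57 (adjusted p = 2.81e-06) and -3.31 (adjusted p = 2.33e-05).

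Elovl5, singled out after its values were seen, gave 24024, 33283 and 36476 on Control and 13787, 16329 and 10906 on LeuD at CT03, and 36236, 34464 and 25574 on Control against 11598, 9004 and 8245 on LeuD at CT15. The diets did not overlap at either time. The difference was -1.19 ± 0.42 at CT03 (adjusted p = 0.28) and -1.74 ± 0.42 at CT15 (adjusted p = 0.142). In the authors' deposited tables it was -1.19 (adjusted p = 4.46e-08) and -1.74 (adjusted p = 1.56e-17).

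Of the other enzymes, Acacb differed by -1.30 ± 0.48 at CT03 (adjusted p = 0.315) and -2.02 ± 0.48 at CT15 (adjusted p = 0.138). Fasn differed by -1.24 ± 1.05 and -1.95 ± 1.05 (adjusted p = 0.72 and 0.573). In the authors' deposited tables Fasn was at -1.43 (adjusted p = 0.0464) and -1.98 (adjusted p = 2.21e-07). The supply genes were all below 0 at both times, from -0.85 to -0.25 at CT03 and from -1.74 to -0.44 at CT15. Acly, at -1.60, Pgd, at -0.94, Acss2, Pklr, G6pdx and Slc25a1 were lower at CT15 in the authors' deposited table.

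The assembly genes were mixed. Of the 7, 5 were above 0 at CT03 and 3 at CT15, and Lpin1, Lpin2 and Dgat2 were above 0 at both times. In the authors' deposited table Lpin2 was higher on LeuD at CT03 (0.52, adjusted p = 0.00244), as was Acsl3 (0.53, adjusted p = 0.0443). Gpam, the acyltransferase of the committed step, was lower there (-0.81, adjusted p = 0.00118).

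Mfsd2a was the member called in the fit over all groups. At CT03 its values of 528 to 2407 on Control and 70.4 to 130.2 on LeuD did not overlap, and the difference was -3.69 ± 0.67 (adjusted p = 0.0377), 12.9-fold lower on LeuD. The call was kept in 1 of 6 fits that left out a library of these groups, that without WT Control CT03 replicate 2. At CT15 the diets overlapped and the difference was -0.37 ± 0.67.

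In KO livers the diet comparison rested on the KO Control groups that hold the pair of low mice. Other transcripts separated the diets here too. Albumin held 8.47% to 9.47% of reads on Control and 11.8% to 12.3% on LeuD at CT03, and 9.19% to 10.7% and 13.4% to 15.3% at CT15. The mitochondrial share was 4.28% to 5.13% on Control and 2.24% to 4.14% on LeuD at CT03, and 5.72% to 6.31% and 2.95% to 3.54% at CT15. Erythroid markers summed to 276 to 381 RPM on Control and 82.8 to 129 on LeuD at CT03 without overlap, and overlapped at CT15. Their part in the results below was not tested. At CT03 1 member, Acacb, fell, by 1.73 ± 0.48 on the log2 scale (adjusted p = 0.0468), against 4.31% of all genes called and 2.2% called lower. Acacb gave 4224, 6664 and 1611 on Control and 1275, 776 and 1245 on LeuD, without overlap. Without the pair of low mice 3 members were called lower, Acacb at -2.31 ± 0.40 (adjusted p = 0.00372) and Thrsp at -2.80 ± 0.54 (adjusted p = 0.00697) among them, and the median of the 37 moved from -0.27 to -0.66. Leaving out KO LeuD CT03 replicate 3 gave 5 calls, and the shares of all genes called in this fit or without the pair are not given. The Acacb call was lost, with 0 members called, when KO Control CT03 replicate 1, KO Control CT03 replicate 2, KO LeuD CT03 replicate 1 or KO LeuD CT03 replicate 2 was left out, without the 3 acinar-rich libraries, with a replicate block and in the fit of these groups alone.

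Control and LeuD livers of KO mice at CT03 did not overlap for 6 members, all lower on LeuD (16.2% of members, 18.9% of all genes): Acacb, Elovl2, Elovl5, Fads2, Dgat1 and Mfsd2a. Elovl5 gave 31534, 39123 and 36322 on Control and 14854, 8476 and 23632 on LeuD. Mfsd2a gave 553, 424 and 442 on Control and 146, 71.4 and 166 on LeuD. For both genes, no LeuD liver at CT03 reached the lowest Control liver of its genotype, WT or KO. The authors' deposited table held 3 members lower, Acacb at -1.93, Elovl5 at -1.19 and Mfsd2a at -1.90 (3.51% of all genes called).

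At CT15 in KO 2 members were called. Acsl3 was higher on LeuD, by 1.01 ± 0.29 (adjusted p = 0.0379), and Mlxipl was lower, at -0.93 ± 0.28 (adjusted p = 0.0432), with 8.47% of all genes called, 5.02% higher and 3.45% lower. Acsl3 gave 1199.8, 2397 and 2034 on Control and 4007, 2676 and 4484 on LeuD, and Mlxipl gave 5910.5, 6993 and 6088 on Control against 4451, 2381 and 3458 on LeuD. Neither overlapped, nor did Mogat1, which was lower on LeuD (8.1% of members, 22.9% of all genes). Leaving the pair of low mice out, Mlxipl kept its call at -0.97 ± 0.28 (adjusted p = 0.0401), and Acsl3 had an adjusted p of 0.141. Both calls were lost without the 3 acinar-rich libraries. The authors' deposited table called the same 2 genes, Acsl3 at 0.98 and Mlxipl at -0.89 (4.82% of all genes called).

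Scd1, Fasn and Acly had positive values in this comparison that depended on the pair of low mice. Scd1 was at 1.59 ± 1.38 with them and -0.70 ± 0.72 without them. Fasn was at 1.52 ± 1.05 and -0.09 ± 0.67, and Acly at 1.22 ± 0.72 and 0.17 ± 0.53. The median of the 37 was 0.28 with them and -0.10 without them, and none of these 3 genes passed either way.

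**Figure D4:**
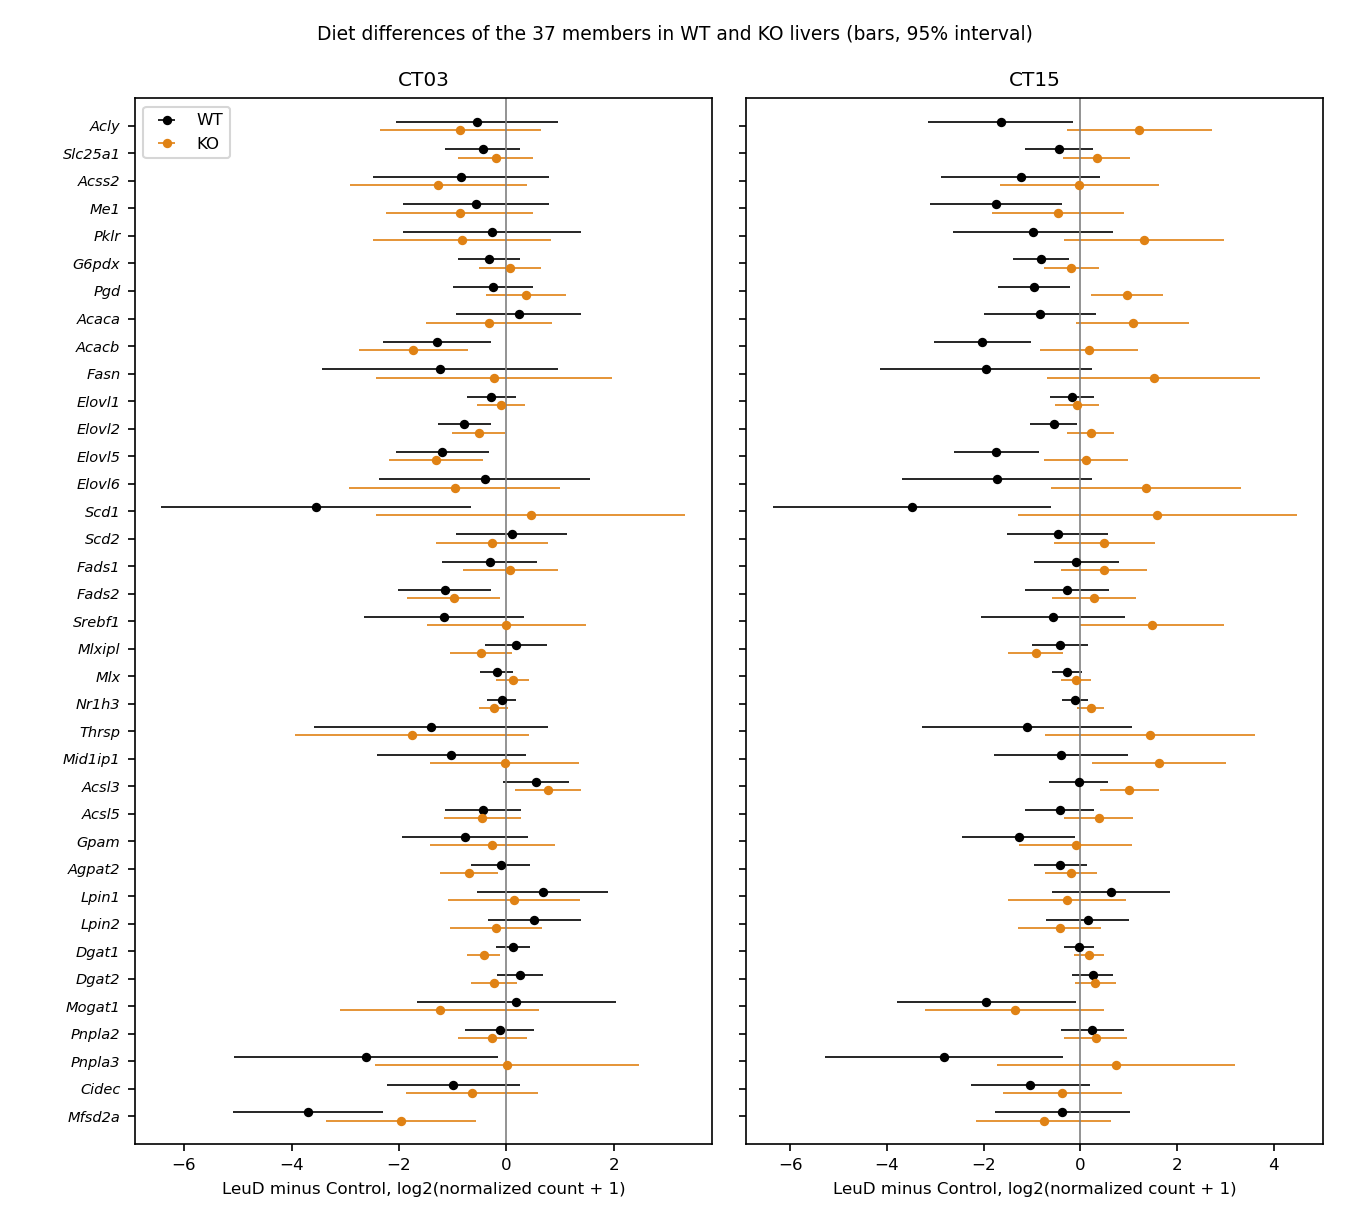
LeuD minus Control difference in log2(normalized count + 1) (horizontal axis) with its 95% interval for each of the 37 genes (vertical axis) at CT03 (left) and CT15 (right), in WT (black) and KO (orange). At CT15 33 of the 37 WT values are below 0 and 24 of the KO values above 0.

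The difference between the genotypes in their response to the diet was tested as an interaction. None of the 37 members passed at CT03 or at CT15 with limma or with edgeR. At an unadjusted p below 0.05 there were 1 and 12 members, and 1886 and 2030 of the 14420 genes. After adjustment 0% and 0.562% of all genes were called. At CT15 the value, KO response minus WT response, was above 0 for 33 of 37 genes with a median of 0.80. Pgd was at 1.93 ± 0.50 (adjusted p = 0.0889), Acacb at 2.21 ± 0.68 (adjusted p = 0.154) and Elovl5 at 1.86 ± 0.59 (adjusted p = 0.163). Without the pair of low mice the median was 0.51, Pgd was at 1.45 ± 0.38 (adjusted p = 0.124) and Scd1 at 2.78 ± 0.96 (adjusted p = 0.245). At CT03 the lowest p values belonged to Dgat1 at -0.54 ± 0.21 (adjusted p = 0.304), Scd1 at 3.99 ± 1.95 (95% interval -0.08 to 8.07) and Mfsd2a at 1.73 ± 0.95 (95% interval -0.24 to 3.71). The median there was -0.11 with and without the pair. The intervals are wide, and a diet response in WT of a different size from that in KO was not shown.

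Comparing KO with WT directly, limma and edgeR each called 0 of the 37 members in any of the 4 pairs of groups. The background called was 0.0624% of all genes on Control at CT03, 0.146% on Control at CT15, 0.839% on LeuD at CT03 and 3.91% on LeuD at CT15. In that order, 0, 4, 4 and 6 members had an unadjusted p below 0.05. So did 1012, 1321, 2323 and 2782 of the 14420 genes. On LeuD at CT03 the genotypes did not overlap for Scd1 and Gpam, higher in KO, and for Mlxipl and Nr1h3, lower in KO (19.4% of all genes did not overlap). Scd1 gave 49224, 17198 and 26832 in WT and 95359, 434181 and 128456 in KO, a difference of 2.62 ± 1.38 (adjusted p = 0.357). Leaving out KO LeuD CT03 replicate 3 brought 4 calls in this pair of groups, and the share of all genes called in that fit is not given. On LeuD at CT15 Pgd, Elovl2, Acsl3 and Gpam lay higher and Mlxipl and Dgat2 lower in KO without overlap (24.6% of all genes).

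On Control at CT03 Lpin2 lay higher and Srebf1 and Mlx lower in KO without overlap (15% of all genes), and Lpin2 was the member that the authors' deposited table called, at 0.82 (adjusted p = 0.000204, with 0.649% of all genes called). At CT15 Pgd and Acaca lay lower in KO without overlap (13.4% of all genes), and the authors' deposited table called 0 of the members (0.321% of all genes). The median of the 37 on Control was -0.18 at CT03 and -0.66 at CT15 with the pair of low mice, and 0.08 and -0.21 without it, with 0 members called either way.

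Beyond the 37, 62 further genes of the pathway were listed, of which 60 were measured. On the averaged time contrast 17 rose (28.3%, against 11.9% of all genes) and 11 fell (18.3%, against 13.1%). The risers included the acyltransferases Agpat1, at 0.99 ± 0.09 (adjusted p = 4.15e-07), and Gpat4, at 0.68 ± 0.12 (adjusted p = 0.000309), and the glucose transporter gene Slc2a2, at 0.68. Those that fell included Insig2, which holds SREBP in the endoplasmic reticulum, at -1.01 ± 0.17 (adjusted p = 0.000194), its binding partner's gene Scap at -0.40, the lipin Lpin3 at -0.64 and the droplet coat gene Plin2 at -0.52, which lost its call without the 3 acinar-rich libraries (adjusted p = 0.0613). In WT LeuD Insig2 fell by 2.29 on the log2 scale (adjusted p = 0.000414).

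For diet, 0 of the 60 passed in WT at either time with limma, with 8 and 12 at an unadjusted p below 0.05. So were 1539 and 1410 of the 14420 genes. In KO, 5 were lower on LeuD at CT03 (8.33%, against 2.2% of all genes), among them the pyruvate carboxylase Pcx at -0.89 ± 0.16 (adjusted p = 0.00442) and the monoglyceride lipase Mgll at -1.54 ± 0.35 (adjusted p = 0.0177). The fit of these groups alone called neither gene, and the Mgll call was also lost without KO Control CT03 replicate 1, without KO LeuD CT03 replicate 2 and without the 3 acinar-rich libraries. At CT15 in KO, 3 were higher and 3 lower (5% each way, near the 5.02% and 3.45% of all genes), among them the droplet gene Plin3 at 0.75 ± 0.19 (adjusted p = 0.023) and the hormone-sensitive lipase gene Lipe at -0.69 ± 0.15 (adjusted p = 0.00899). The Plin3 call was lost without the pair of low mice (adjusted p = 0.0702) and when KO LeuD CT15 replicate 3 or KO Control CT15 replicate 1 was left out, and the fit of these groups alone called neither Plin3 nor Lipe.

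The region before the start of the genes was read for 32 of the 37, since members that change together with time can be compared in sequence there. Promoters came from RefSeq (build GRCm38.p6, which is older than the GRCm39 build named for the deposited counts), as 250 bases upstream of each annotated start on the gene's strand. The 32 genes had 45 such windows, since 11 of them have 2 or 3 annotated starts. Scd1, Scd2, Fads1, Dgat1 and Dgat2 had no entry. The 4 genes below were called on the averaged time contrast and hold a CCAAT box, the letters CCAAT read on either strand and so also ATTGG; Mlx, in addition, holds the E-box CACGTG. Capitals mark these letters.

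Fasn: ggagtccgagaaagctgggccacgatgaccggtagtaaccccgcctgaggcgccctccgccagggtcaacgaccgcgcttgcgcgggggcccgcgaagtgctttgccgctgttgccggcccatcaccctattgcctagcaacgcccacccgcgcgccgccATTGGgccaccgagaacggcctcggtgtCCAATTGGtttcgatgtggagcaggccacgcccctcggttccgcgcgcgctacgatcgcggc

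Thrsp: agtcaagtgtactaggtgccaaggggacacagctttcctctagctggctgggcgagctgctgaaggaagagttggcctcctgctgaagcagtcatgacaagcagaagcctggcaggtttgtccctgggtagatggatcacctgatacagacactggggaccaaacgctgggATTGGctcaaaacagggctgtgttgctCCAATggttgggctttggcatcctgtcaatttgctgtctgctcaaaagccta

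Acacb: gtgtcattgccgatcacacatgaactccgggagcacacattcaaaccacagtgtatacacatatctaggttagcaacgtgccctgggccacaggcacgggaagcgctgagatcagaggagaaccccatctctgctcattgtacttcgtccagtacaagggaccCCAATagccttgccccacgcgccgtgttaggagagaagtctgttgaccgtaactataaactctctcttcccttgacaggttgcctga

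Mlx: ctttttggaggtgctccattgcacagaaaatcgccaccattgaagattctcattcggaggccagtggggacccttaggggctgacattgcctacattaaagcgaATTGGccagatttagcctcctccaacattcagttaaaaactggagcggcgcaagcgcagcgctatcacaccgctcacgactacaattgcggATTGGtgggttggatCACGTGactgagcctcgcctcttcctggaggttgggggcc

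Fasn lies on the minus strand and its window is chr11:120824548-120824797. Thrsp, also on the minus strand, has the window chr7:97417551-97417800. The windows of Acacb, chr5:114165268-114165517, and Mlx, chr11:101087040-101087289, are on the plus strand. The Fasn window holds 3 CCAAT boxes, of which 2 overlap on opposite strands, Thrsp and Mlx hold 2 each and Acacb holds 1.

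Counting a gene when any of its windows matched, a CCAAT box stood before 19 of the 32 members (59.4%, against 37.5% of 27025 genes with a window), and a GC box, GGGCGG on either strand, before 18 (56.2% against 35.4%). A CCAAT box stood before 9 of 15 members called for time and 10 of 17 of the rest. Per window the CCAAT share was 44.4% of the 45 against 33.8% of the 32851 windows of all genes. The E-box stood before 5 (15.6% against 6.86%), Elovl5, Lpin2, Mlx, Mlxipl and Slc25a1. A sterol regulatory element, TCACNCCAC on either strand, stood before 1, Mlxipl (3.12% against 1.22%), and the D-box TTATGNAA before 0 (against 3.63%). These are matches of letters in a short window and say nothing of which factor binds.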

How the data were processed

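Liver RNA from 24 mice (8 groups of 3) was sequenced as poly(A)-enriched libraries, per the labels' protocols. Per the submitters' processing notes, the tools used included Trimmomatic 0.36, STAR 2.5.2b, featureCounts of Subread 1.5.2 and DESeq2, with build GRCm39. The sources used here name no annotation or strand setting, so overlapping genes may share reads. The 10 deposited tables each compare 2 groups and hold a signal per gene and library, the normalized count, which is the read count divided by a size factor, and the authors' log2 fold changes, p-values and adjusted p-values, per the file headers.

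Whole reads were recovered from each deposited column (100% of values whole within 0.01 reads). A library that stands in several tables gave the same reads in all that were compared, with 0 reads differing over 44 pairs of tables. Of the 60 library columns, 2 were left out of this comparison because their size factors were too near 1. They were those of KO Control CT03 replicate 3 and WT Control CT03 replicate 1, in 1 table each. Size factors by the median of ratios were computed again over all 24 libraries. One limma model (limma 3.58.1, R 4.3.3, with a mean trend) of 8 group means was fitted to log2(normalized count + 1) for the 14420 genes listed for all 24 libraries with a mean of at least 10, a filter that removed none. It leaves 16 residual degrees of freedom, and p-values were adjusted by Benjamini-Hochberg over all 14420 genes. The ± after a log2 difference is its standard error, with 3 mice per group. On simulated reads for time in WT LeuD with 200 genes changed, the fit recovered 63% of 2-fold and 88% of 4-fold changes. For time by diet in WT it recovered 32% and 67%. These shares are for changed genes among all 14420, and the members described here varied more within groups. Their median coefficient of variation was 19.0% to 64.3% over the 8 groups, against 11.2% to 18.6% for all genes. Recovery was not simulated for the members alone, so a lack of calls among them does not show a lack of change.

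The 37 genes, their roles and the other lists were chosen with earlier results of these data known. All members are accounted for; values in every library are given for up to 4 called members of a role and for 4 regulators, and the 3 members with the lowest p for each difference of effects. Fasn, Scd1 and Elovl5 were added after their values were seen. Alternatives were a fit of the compared groups alone (on the authors' normalized counts where a deposited table holds the pair), a pseudocount of 10, no filter, TMM scaling, edgeR's quasi-likelihood test (edgeR 4.0.16) on the recovered reads, a replicate block, leaving out the 3 libraries above 1000 acinar RPM, and leaving out each library. Chosen after seeing the data were leaving out the 5 libraries above 200 acinar RPM and leaving out the pair of KO Control mice.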

Additional observations from a re-analysis of the deposited data

Results flagged for a closer look

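Plin3, which encodes a lipid droplet coat protein and is one of the 60 further genes of the pathway, responded differently to the diet in the 2 genotypes at CT15. The KO response minus the WT response was 1.26 ± 0.28 log2 (adjusted p = 0.0409, limma), with 0.75 ± 0.19 in KO, where the diets did not overlap, and -0.52 ± 0.19 in WT, where they overlapped. The call was lost in 7 of the 12 fits that each left out 1 library, among them that without KO Control CT15 replicate 1 (1.11, adjusted p = 0.118) and that without KO LeuD CT15 replicate 3 (1.12, adjusted p = 0.132). It was also lost with edgeR (adjusted p = 0.0538), with a replicate block (adjusted p = 0.052), in the fit of the 4 groups alone (adjusted p = 0.113), without the 3 acinar-rich libraries (adjusted p = 0.0717) and without the pair of low KO Control mice (1.11, adjusted p = 0.0864). None of the 37 members passed such a test.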

How the results depend on the processing

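No called member changed sign under any alternative, and dropping the filter changed nothing. Fitting the compared groups alone gave these counts of called members: for time, 4 in WT Control, 11 in WT LeuD, 0 in KO Control and 6 in KO LeuD; for diet, 4 in WT at CT03, 2 in WT at CT15, and 0 in KO at each time. TMM scaling and edgeR each called 1 for time in WT Control. Without the 3 acinar-rich libraries the counts were 1 for time in WT LeuD, 2 for time in KO LeuD and 0 for diet in KO at CT03 and at CT15. Without the 5 libraries above 200 acinar RPM they were 0 for time in KO Control, 6 for time in KO LeuD, 2 for diet in WT at CT15, 0 for diet in KO at CT15 and 1 for genotype on LeuD at CT15. Without the pair of KO Control mice they were 1 for time in KO Control, 3 for diet in KO at CT03 and 1 for diet in KO at CT15. The cause of these shifts was not tested. For these counts, here and where they stand above, the shares of all genes called in the same fits are not given. The counts therefore do not tell a shift of the members from a shift of all genes.

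Leaving out each library in turn gave ranges of 0 to 1 for time in WT Control, 1 to 2 for time in WT LeuD, 0 to 3 for time in KO Control and 3 to 15 for time in KO LeuD. The ranges were 0 to 1 for diet in WT at CT03, 0 to 5 for diet in KO at CT03 and 0 to 3 for diet in KO at CT15. They were 0 to 4 for genotype on LeuD at CT03 and 0 to 2 for diet by genotype at CT15, and the averaged time contrast had 14 to 25 called members. The 25 came without KO Control CT15 replicate 1. The 15, 5 and 4 came without KO LeuD CT03 replicate 3, and the 2 for diet by genotype without KO LeuD CT15 replicate 2. Shares of all genes called are not given for these ranges either.

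A replicate block left 0 called for diet in KO at CT03 and 1 for diet in KO at CT15, and moved no other count by over 1.5 times. Same-numbered libraries correlated at -0.377 to 0.384 in their deviations, with a median of 0.039 against -0.028 for other numbers. Of the 24 libraries, 13 correlated best with their own number. These values do not settle whether the numbers pair mice, which the labels do not say. The main fit held no replicate block.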

Other observations

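The pair of KO Control mice that stood apart differed in more than lipid synthesis. The following genes were chosen after their values were seen. Igfbp1, a secreted binding protein of insulin-like growth factors, gave 10618 and 23092 normalized counts in KO Control CT03 replicate 3 and KO Control CT15 replicate 1, against 294 to 1640 in the other 4 KO Control livers. High Igfbp1 was not particular to the pair, as LeuD livers at CT03 gave 9573 to 16166 in WT and 7546 to 11937 in KO. Cyp4a14, a fatty acid hydroxylase, gave 225785 and 210061 in the pair against 3235 to 6006 in the other 4 KO Control livers. Its highest value outside the pair was 48983. Within the 37 genes, most of which were low in the pair, a few were high. KO Control CT15 replicate 1 held the highest values of the 24 livers for Lpin1 (24499), Lpin2 (23239) and Mfsd2a (8915). Cidec was at 278 and 379 in the pair, against 83.1 to 117.4 in the other 4, and Pnpla2 at 4265 and 3900 against 1522 to 2523. Over all livers outside the pair the highest value was 676 for Cidec and 3620 for Pnpla2.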
